A study of Mus musculus with 20 samples.

Results

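The clustered protocadherins are cell-surface adhesion proteins of neurons, encoded in the mouse by 3 neighbouring gene clusters named α, β and γ. On the array used here, 35 of the 45037 probe sets that are not controls carried only symbols of these clusters, and all of them are described. A probe set is a group of short oligonucleotides that read the same transcript or transcripts. The α cluster was read by 6 probe sets, the β cluster by 28 and the γ cluster by 1.

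In the α and γ clusters each isoform begins with its own large variable exon, which has its own promoter and encodes the whole extracellular domain, and which is spliced to constant exons shared by the cluster. β genes are single-exon genes without such constant exons. A neuron switches on a small, largely random choice of these promoters, through DNA methylation and CTCF- and cohesin-mediated contact with enhancers, and the resulting combination lets its dendrites and axons recognise and avoid branches of the same cell.

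The neocortex of 20 male mice was measured, with 1 array per animal and 5 animals in each of 4 groups. All animals were B6C3F1 mice, the first-generation hybrid of the B6 and C3H strains, housed singly. Young controls were 5 months old and old controls 30 months old, and both ate the control diet. The other groups were also 30 months old and had eaten a supplement since 15 months of age. It was either α-tocopherol, the main form of vitamin E in tissue, at 1000 mg/kg, or a mixture in which α- and γ-tocopherol were each given at 500 mg/kg. The dose of α-tocopherol thus differed between the supplements while their total did not.

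The single-symbol probe sets of the β cluster covered 22 genes, the number the RefSeq gene table lists for that cluster, with 3 probe sets for Pcdhb16 and 2 each for Pcdhb4, Pcdhb14, Pcdhb15 and Pcdhb21. The α cluster had no probe set for a single isoform. Its probe sets 1420798_s_at, 1424341_s_at and 1451769_s_at, were assigned to all 14 α isoforms, and another 3 (1425017_at, 1425613_at and 1427687_at) to 9 of them. Of 22 γ genes in RefSeq, only Pcdhgc4 had a probe set of its own. The β genes are close in sequence to one another, so a probe set named for 1 of them may also take up signal from its neighbours.

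Signal is given on the deposited linear scale, on which the trimmed mean of every array is 1000, and differences are of log2(signal + 16). Tests were limma's moderated test on the probe sets in the brightest 60%, a limit that fell at a mean signal of 184. Of the 35 members, 15 lay above it: the 3 probe sets of all α isoforms and 12 of the β cluster, each for a different gene. The other 20, with the γ probe set and the 3 probe sets of 9 α isoforms among them, lay below. The nearest below the limit was 1425017_at, with a mean signal of 183, and the nearest above it was Pcdhb21 (1420422_at), at 279.

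**Figure D1:**
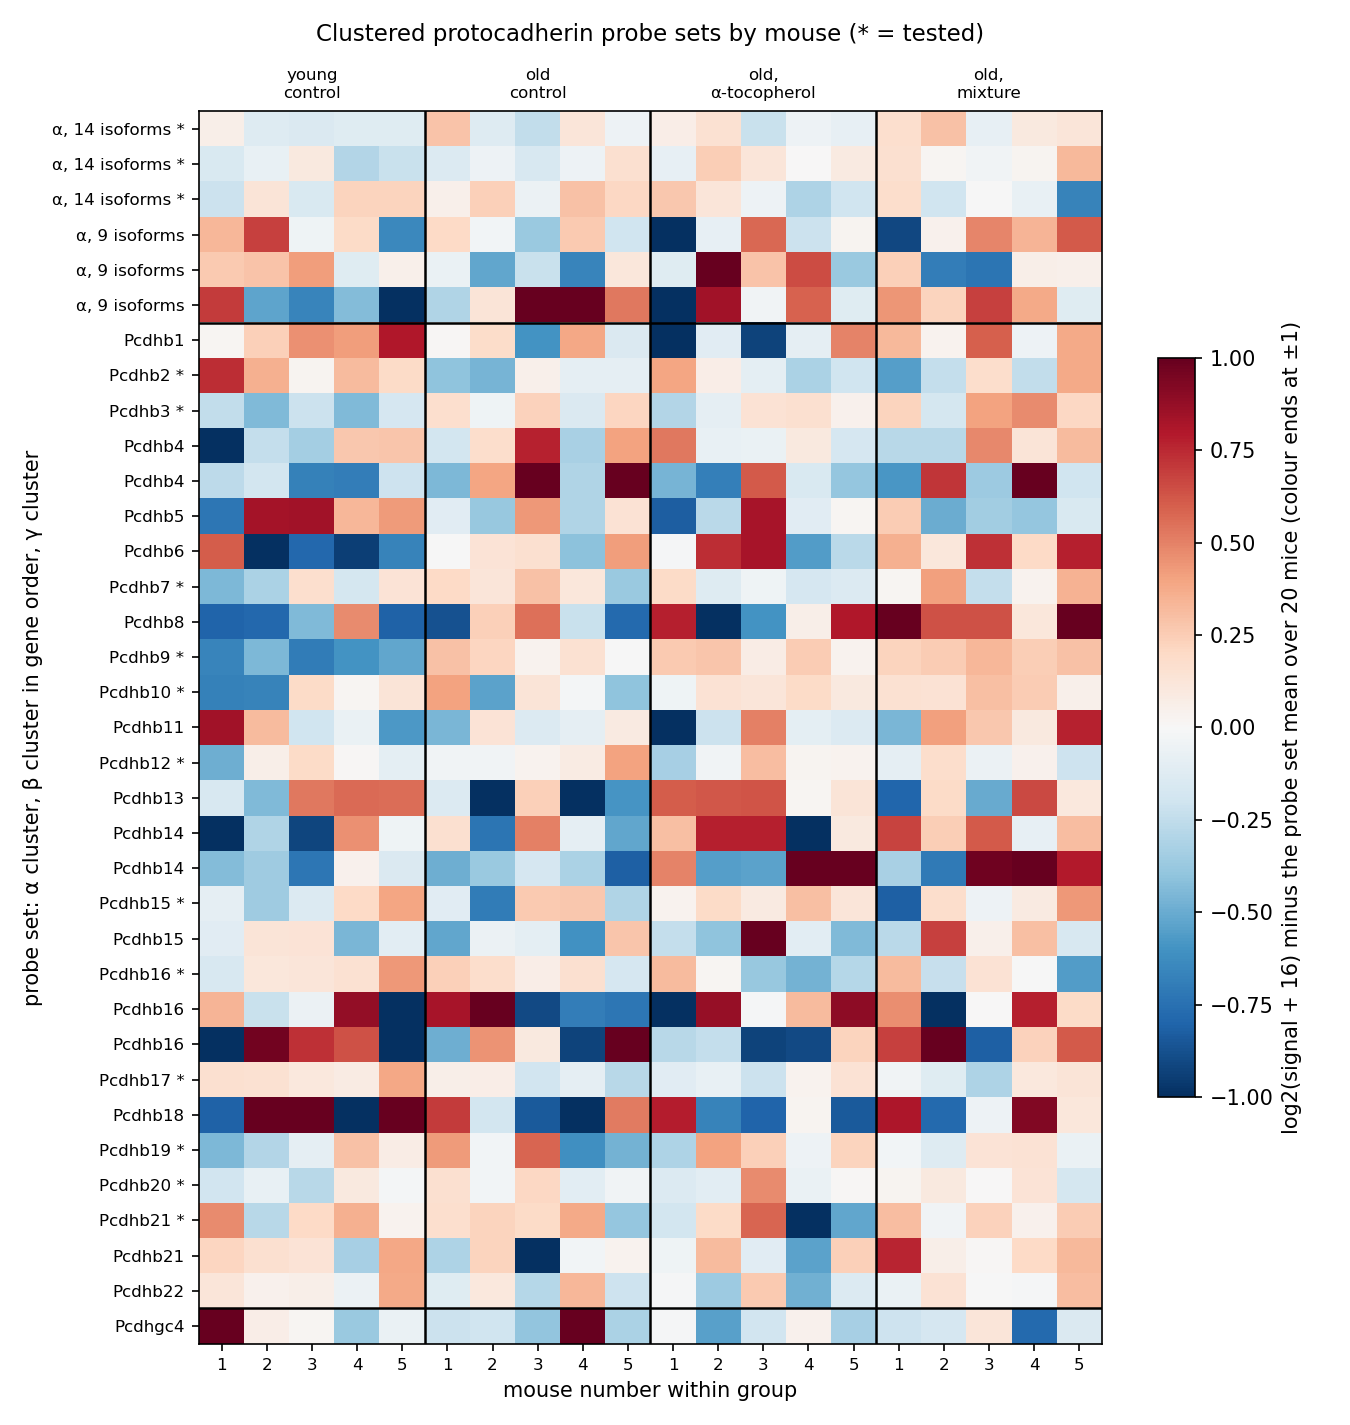
Deviation of log2(signal + 16) from the probe set's own mean over the 20 mice, for the 35 clustered protocadherin probe sets (down) in each mouse (across, by group); an asterisk marks the 15 tested probe sets and the colours end at -1 and 1. Pcdhb9 is low in all 5 young mice and higher in all 15 old mice, while most dim probe sets vary from mouse to mouse within every group.

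The first comparison, of old with young controls, addresses ageing of the neocortex on the control diet. In old controls Pcdhb9 rose 1.65-fold and Pcdhb3 rose 1.31-fold, Pcdhb2 fell 1.44-fold, and none of the 3 tested α probe sets passed the test. The calls were thus 2 of 15 tested members higher and 1 lower at an adjusted p of 0.05, against 9.33% of all 27022 tested probe sets higher and 9.54% lower, so the members' share was near that of the whole array. With array medians set equal, 83.8% of all calls were higher in place of 49.4%, and 2 members stayed higher while none was lower. The members' median difference was 0.09 on the log2 scale, with 10 positive and 5 negative, against -0.05 over all tested probe sets. In tissue homogenate, a change in the number of neurons and a change in RNA per neuron cannot be told apart.

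Pcdhb9 (1422640_at) separated young from old mice completely. Its signal was 1224, 1261, 1315, 1391 and 1462 in the 5 young controls, and 1998, 2046, 2226, 2329 and 2452 in the 5 old controls. The lowest old mouse thus stood well above the highest young mouse. The log2 difference was 0.72 ± 0.07 (SE, 95% interval 0.57 to 0.88, limma adjusted p = 4.17e-06). Its mean level, back-transformed from the log2 scale, was 1328 in young and 2204 in old controls. The within-group SD of Pcdhb9 was 0.10 on the log2 scale, and only 6.01% of tested probe sets had a smaller one.

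Pcdhb3 (1420429_at) also separated the groups, by a narrower margin. Its signal was 518, 520, 596, 611 and 631 in young controls and 641, 690, 803, 827 and 838 in old controls. The lowest old mouse lay just above the highest young mouse. The log2 difference was 0.39 ± 0.12 (SE, 95% interval 0.13 to 0.64, limma adjusted p = 0.0308). The call was lost, at an adjusted p between 0.0596 and 0.074, when any of young mice 2 and 4 or old mice 1, 3 and 5 was left out.

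Pcdhb2 (1421548_at) moved the other way. Its signal was 296, 335, 365, 377 and 495 in young controls and 206, 215, 272, 272 and 301 in old controls. The highest old mouse lay above the lowest young mouse, so the groups overlapped. The log2 difference was -0.53 ± 0.18 (SE, 95% interval -0.91 to -0.14, limma adjusted p = 0.0493). This call sat at the threshold, and it was lost under most other settings, with adjusted p reaching 0.147 (cyclic loess normalization).

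Pcdhb17 (1448933_at) was lower in every old control than in any young control without passing the test. Its signal was 1057, 1075, 1110, 1119 and 1312 in young controls and 821, 869, 937, 1040 and 1047 in old controls. The log2 difference was -0.26 ± 0.10 (SE, limma adjusted p = 0.0688). Separation of all 5 old from all 5 young controls occurred for 2 tested members upwards and 1 downwards, against 7.09% and 7.19% of all tested probe sets.

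**Figure D2:**
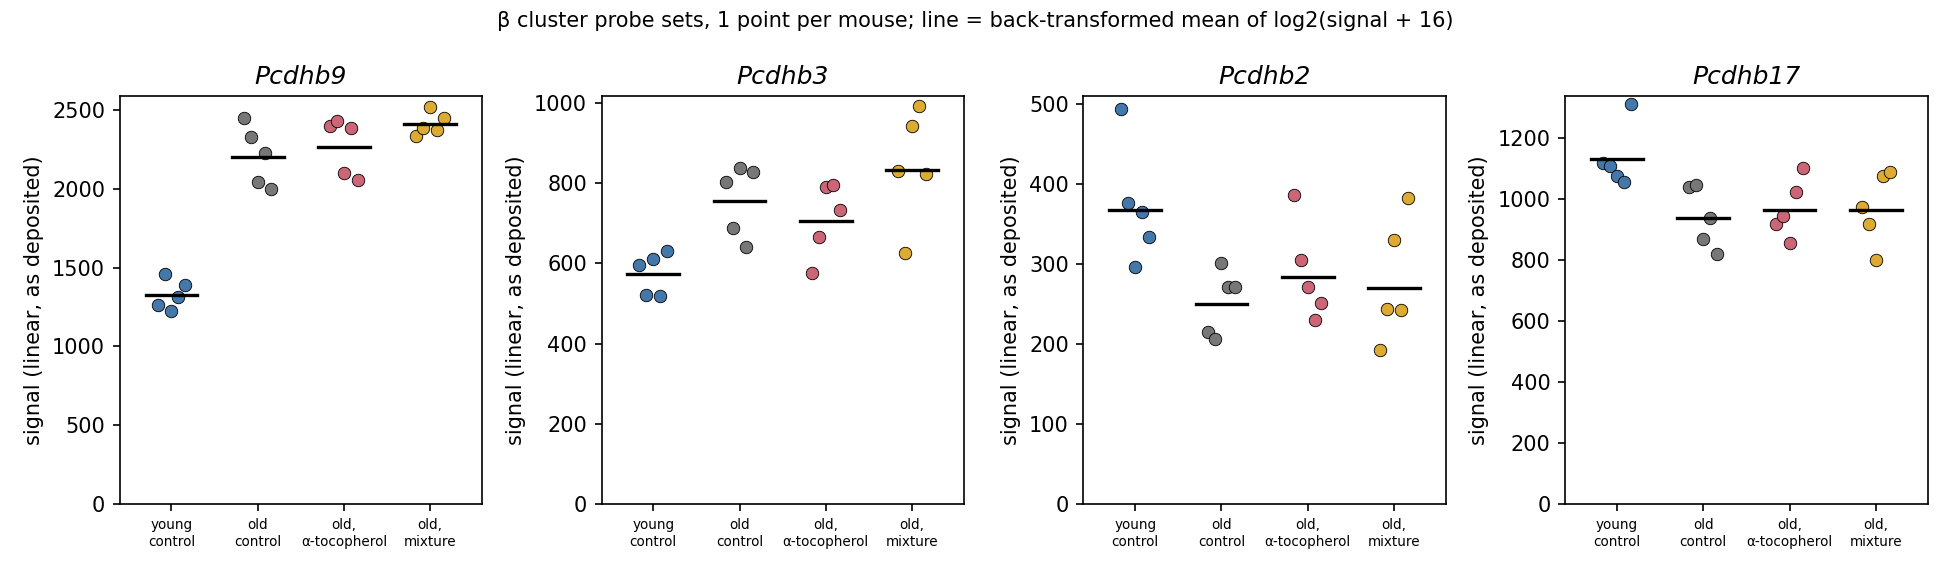
Deposited signal (linear scale, vertical axis from 0) of Pcdhb9, Pcdhb3, Pcdhb2 and Pcdhb17 in each mouse by group; each point is a mouse and each line the group mean back-transformed from log2(signal + 16). For Pcdhb9 the 15 old mice lie between 1998 and 2522, above the young range of 1224 to 1462, whereas the old and young mice overlap for Pcdhb2.

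Among the other 8 tested β genes, log2 differences between old and young controls ran from -0.12 for Pcdhb15 to 0.20 for Pcdhb7, and the lowest adjusted p was 0.365. Pcdhb7 (1449527_at) spanned signals of 450 to 697 in young controls and 475 to 761 in old controls, so its groups overlapped. Pcdhb20 (1449583_at) differed by 0.13 and Pcdhb12 (1422877_at) by 0.16, and their groups overlapped as well. The least precise was Pcdhb21 (1420422_at), with a difference of -0.04 ± 0.33 (SE). Over all 15 tested members, the 95% interval lay within a 1.5-fold change in either direction for 11, against 65.5% of all tested probe sets.

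Because Pcdhb9 was brought out by its values, its level was also set against the rest of its cluster on the same array, a measure chosen after the values had been seen. The log2 ratio of Pcdhb9 to the mean of the other 11 tested β probe sets was 1.46 ± 0.18 (SD, n = 5) in young controls and 2.18 ± 0.17 (SD, n = 5) in old controls. The difference was 0.72, as on the array's own scale. It is given as a description, without a test result, since the separation of the same mice prompted the measure.

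The 3 probe sets that the platform annotation assigns to all α isoforms all lay slightly higher in old controls without passing the test. Signal of 1420798_s_at was 4523, 4565, 4586, 4600 and 5190 in young controls and 4203, 4572, 4826, 5446 and 6085 in old controls. The old mice spread to both sides of the young mice. Its log2 difference was 0.09 ± 0.09 (SE, limma adjusted p = 0.528). Those of 1424341_s_at and 1451769_s_at were 0.08 and 0.11, with limma adjusted p of 0.532 and 0.633. The 95% interval of each of the 3 lay within a 1.5-fold change.

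The 20 dimmer members gave no call on age. With every probe set tested, none of them passed the threshold, against 10.8% of all 45037, bright and dim together. None had groups that did not overlap, against 0.816% higher and 3.24% lower among the 18015 probe sets below the limit. The lowest unadjusted p belonged to Pcdhb13 (1450316_at), whose signal was 96.5 to 210 in young and 49.0 to 164 in old controls, a log2 difference of -0.76 (limma adjusted p = 0.126). Among those that leaned upwards, Pcdhb4 (1422951_at) differed by 0.87 (limma adjusted p = 0.146) and the α probe set 1427687_at by 1.08 (limma adjusted p = 0.163). Pcdhb6 (1423014_at) differed by 0.70 (limma adjusted p = 0.182). These and Pcdhb13 had an unadjusted limma p under 0.05, as did 9042 of the 27022 probe sets above the limit. Among all probe sets below the limit the share at that cutoff was not counted. Pcdhgc4 (1438103_at), an unusual γ isoform needed for neuronal survival, had signals of 8.4 to 148 over all 20 mice. It was under 30 in all but 1 young and 1 old control, and its log2 difference was -0.20 ± 0.40 (SE). Genes with several probe sets were seen through the brightest of them only: the other probe sets of Pcdhb15, Pcdhb16 and Pcdhb21 stayed below the limit, and for Pcdhb4 and Pcdhb14 both did.

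**Figure D3:**
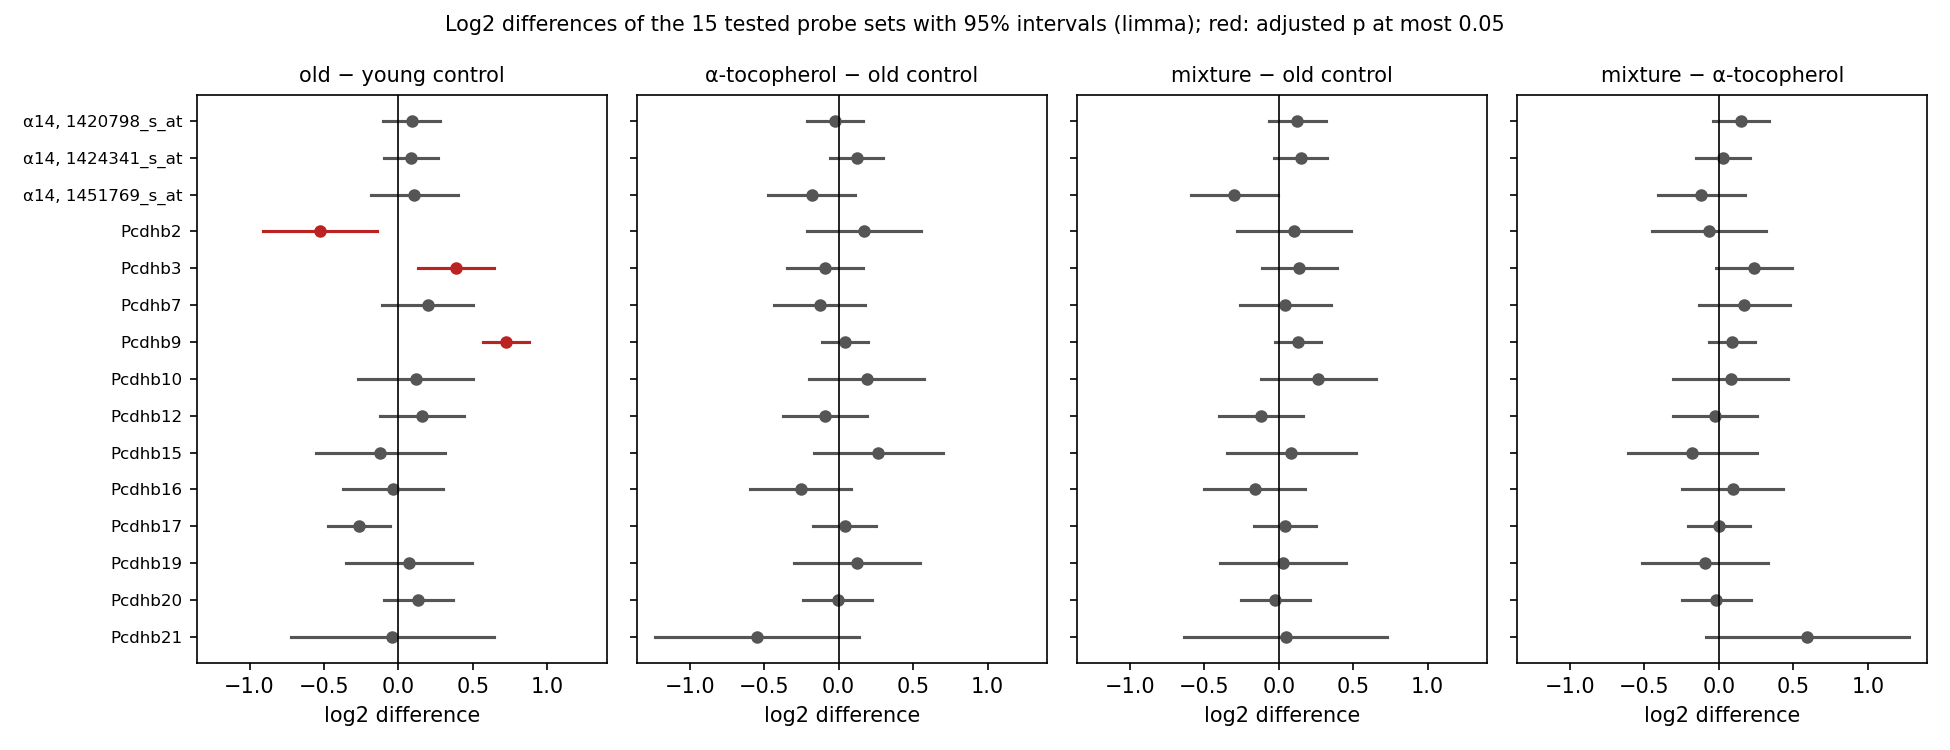
Log2 difference with its 95% interval (horizontal axis, log2 units) for the 15 tested clustered protocadherin probe sets in the 4 comparisons, red where the adjusted p was at most 0.05. Only Pcdhb9, Pcdhb3 and Pcdhb2 are red, and only in old minus young controls; Pcdhb21 has the widest intervals.

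The second comparison, of α-tocopherol with the old control diet, asks what the single supplement did to the old neocortex. No clustered protocadherin passed the test, with adjusted p from 0.893 to 0.996, nor did any probe set on the array in either direction (0% of 27022). Unadjusted p was under 0.05 for 0 of the 15 tested members, and for 1473 of all tested probe sets. The members leaned to neither side, with 7 positive and 8 negative differences and a median of -0.01, against 0.01 over all tested probe sets. No tested member had all 5 treated mice on one side of all 5 old controls, against 0.437% of tested probe sets higher and 0.27% lower. For 12 of 15 the 95% interval lay within a 1.5-fold change, against 81.7% of all tested probe sets.

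Pcdhb9 stayed at its old level with α-tocopherol. Its signal in the 5 mice was 2055, 2103, 2387, 2397 and 2430. The difference from old controls was 0.04 ± 0.07 (SE, 95% interval -0.11 to 0.20), so a return to the young level, which would be near -0.72, lay outside the interval. Pcdhb3 differed from old controls by -0.09 ± 0.12 (SE) and Pcdhb2 by 0.17 ± 0.18 (SE). The direction of both was towards the young mice, and neither interval excluded 0. The same old controls enter the difference from young controls that brought both genes out. Their direction is therefore a description and no sign of a reversal.

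Among the 15 tested members, the largest differences with α-tocopherol were downwards for Pcdhb21, at -0.55 ± 0.33 (SE), and Pcdhb16 (1441994_at), at -0.26 ± 0.16 (SE), and upwards for Pcdhb15 (1443421_s_at), at 0.27 ± 0.21 (SE). Pcdhb21 signals were 46.7, 190, 244, 321 and 425 in these mice and 210 to 369 in old controls. The value of 46.7 came from mouse 4 of the group, and without that mouse the Pcdhb21 difference was -0.10 (limma adjusted p = 0.966). Among the α probe sets, 1424341_s_at differed by 0.12, 1420798_s_at by -0.02 and 1451769_s_at by -0.18, and in all 3 the mice overlapped the old controls. Among the dim members Pcdhb13 differed by 0.95 (limma adjusted p = 0.855), with signals of 139 to 220 against 49.0 to 164 in old controls.

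The third comparison set the mixture of tocopherols against the same old controls. No member passed the test, with adjusted p from 0.237 to 0.957, while 1.3% of all tested probe sets were higher and 2.29% lower. Of those calls 36.1% were thus higher, against 10.1% with array medians set equal. The members had 11 positive and 4 negative differences and a median of 0.05, against 0.03 over all tested probe sets. No tested member separated the groups completely, against 2.69% of tested probe sets higher and 3.03% lower. For 12 of 15 the 95% interval lay within a 1.5-fold change, against 74.7% of all tested probe sets.

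Pcdhb9 again remained high. Its signals with the mixture were 2337, 2375, 2389, 2453 and 2522, the narrowest spread of the 4 groups. The difference from old controls was 0.13 ± 0.07 (SE, 95% interval -0.02 to 0.28, limma adjusted p = 0.341). Set against young controls, Pcdhb9 was 1.65-fold higher in old controls, 1.70-fold with α-tocopherol and 1.81-fold with the mixture, and in each group 5 of 5 mice exceeded every young mouse. These ratios share the young controls and are a description.

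Pcdhb3 varied more between mice of a group than Pcdhb9 did. Its signals were 577, 666, 734, 790 and 795 with α-tocopherol and 626, 825, 832, 944 and 993 with the mixture. In each of these groups 4 of 5 mice exceeded every young mouse. Relative to young controls the log2 differences were 0.30 with α-tocopherol and 0.53 with the mixture, beside the 0.39 of old controls, each ± 0.12 (SE). For Pcdhb2 the matching values were -0.36 and -0.42, beside -0.53, each ± 0.18 (SE), and for Pcdhb17 -0.23 and -0.23, beside -0.26, each ± 0.10 (SE). In a test of any difference among the 4 groups, limma's F test, Pcdhb9 (adjusted p = 7.89e-07) and Pcdhb3 (adjusted p = 0.0187) passed, 2 of 15 against 21.4% of all tested probe sets.

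The 3 probe sets of all α isoforms did not move together with the mixture. Signal of 1420798_s_at was 4714, 5358, 5446, 5622 and 6136, and that of 1424341_s_at was 2560, 2660, 2672, 2934 and 3287. These lay 0.12 ± 0.09 and 0.15 ± 0.09 (SE) above old controls on the log2 scale. Signal of 1451769_s_at was instead 563, 786, 861, 905 and 1027 with the mixture, against 869, 938, 1046, 1070 and 1115 in old controls. Its log2 difference was -0.30 ± 0.14 (SE, 95% interval -0.59 to -0.01), the sole one of the 15 tested members with an unadjusted limma p under 0.05 (0.0453, adjusted p = 0.237). In this comparison 5420 of all 27022 tested probe sets had an unadjusted limma p under 0.05, a larger share than 1 of 15. Mouse 5 of the mixture group had the 563, and without it the difference of 1451769_s_at was -0.17 (limma adjusted p = 0.564).

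The divergence was measured within each array as the log2 ratio of 1451769_s_at to the mean of the other 2 probe sets of all α isoforms, again after the values had been seen. This ratio was -1.83 ± 0.29 in young controls, -1.81 ± 0.13 in old controls, -2.04 ± 0.21 with α-tocopherol and -2.24 ± 0.39 with the mixture (SD, n = 5 each). The mixture differed from old controls by -0.43, and by -0.28 without its mouse 5. With α-tocopherol the difference from old controls was -0.23. These too are given as descriptions, without a test result. Which stretch of the α transcripts each probe set reads was not examined here.

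**Figure D4:**
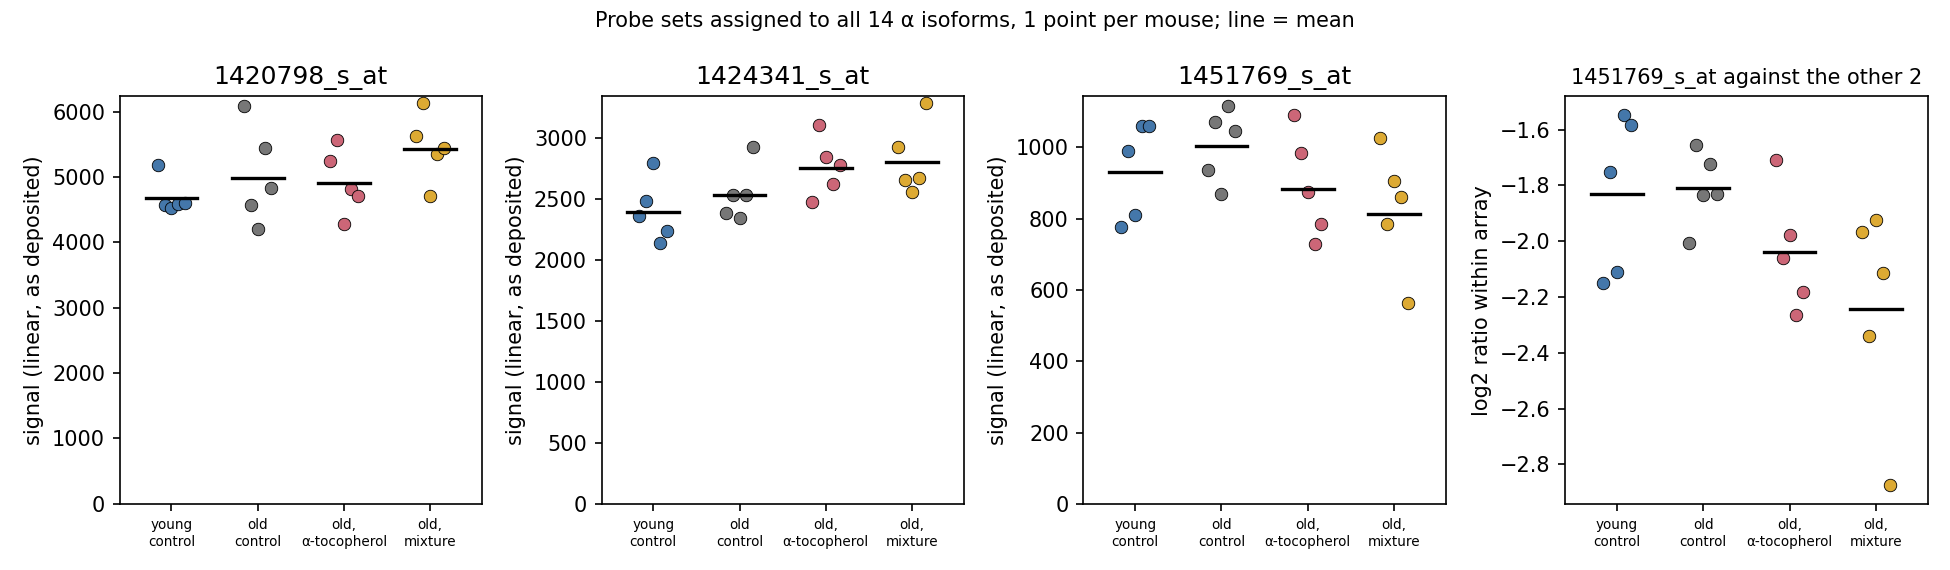
Deposited signal (linear scale, vertical axes from 0) of the 3 probe sets of all 14 α isoforms in each mouse by group, with group means back-transformed from log2(signal + 16), and, in the last panel, the log2 ratio within each array of 1451769_s_at to the mean of the other 2. The ratio averages -1.81 in old controls and -2.24 with the mixture, where mouse 5 has the lowest signal of 1451769_s_at (563).

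Among the 12 tested β genes with the mixture, the largest positive difference was that of Pcdhb10 (1422729_at), at 0.27 ± 0.19 (SE), with signals of 323 to 386 against 210 to 416 in old controls. Pcdhb16 differed by -0.16 and Pcdhb12 by -0.12. Of the 20 dim members, 3 had an unadjusted limma p under 0.05, all upwards, beside 5420 of the 27022 probe sets above the limit. The share at that cutoff among all dim probe sets was not counted. None of the 3 passed the adjusted threshold, which 1.09% of all 45037 probe sets passed. The 3 were Pcdhb8 (1450341_at), at 0.92 (limma adjusted p = 0.233), Pcdhb14 (1421437_x_at), at 0.83 (limma adjusted p = 0.303), and Pcdhb21 (1438106_at), at 0.63 (limma adjusted p = 0.334). The brighter Pcdhb21 probe set (1420422_at) differed by 0.05 in the same comparison.

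The fourth comparison, between the supplements, was free of the old controls that both others share. No member passed the test, with adjusted p from 0.637 to 1.00, and no probe set on the array did (0% in each direction). Pcdhb3 was 0.23 ± 0.12 (SE, limma adjusted p = 0.637) higher with the mixture, and Pcdhb9 was 0.09 ± 0.07 (SE) higher. Pcdhb21 was 0.59 ± 0.33 (SE, limma adjusted p = 0.663) higher, and 0.14 without mouse 4 of the α-tocopherol group. The α probe set 1420798_s_at was 0.15 ± 0.09 (SE) higher with the mixture, and 1451769_s_at 0.12 lower, at -0.12. No tested member separated the supplements, against 0.507% of tested probe sets higher with the mixture and 0.688% lower. For 13 of 15 members the 95% interval lay within a 1.5-fold change, against 80.7% of all tested probe sets.

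Genes known to act on these clusters or with their proteins were read through the brightest probe set of each gene. Old controls had 11.7% of the 13351 genes tested this way higher than young controls and 9.3% lower. Of 17 regulators of protocadherin promoters and chromatin, 1 rose and none fell: Smc1a, a core subunit of cohesin, by 0.21 (limma adjusted p = 0.0267). Of 24 signalling and processing partners, 6 rose and 3 fell. Wasf1, a subunit of the WAVE complex that protocadherin tails can recruit to actin, rose by 0.51 (limma adjusted p = 0.000288), and Ctnnb1, which encodes β-catenin, rose by 0.27. Abi2, also of the WAVE complex, was lower at -0.26, and Marcks, an actin-binding substrate of protein kinase C downstream of γ-protocadherins, at -0.29.

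Relatives outside the clusters did not share one direction. Of 11 non-clustered protocadherins, 2 fell in old controls and none rose: Pcdh7 differed by -0.35 (limma adjusted p = 0.00401) and Pcdh15, a tip-link protein of hair cells, by -0.64 (limma adjusted p = 0.00607). Of 23 other cadherin superfamily genes 4 rose and 2 fell, and Clstn1, a calsyntenin that acts in axonal transport and at synapses, rose by 0.60 (limma adjusted p = 0.000317). Of 15 tested genes that flank or lie between the clusters in RefSeq, 4 rose and 1 fell. Wdr55 differed by -0.37 (limma adjusted p = 0.00364). Cd14, a lipopolysaccharide co-receptor of myeloid cells, rose by 0.76 (limma adjusted p = 0.015), Tmco6 rose by 0.47 and Hars, a histidyl-tRNA synthetase gene, rose by 0.32.

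With the mixture 1.03% of all genes tested were higher than in old controls and 2.67% lower. In the same lists 1 of 17 regulators, 1 of 11 non-clustered protocadherins and 1 of 23 other cadherin superfamily genes were higher. Lower were 2 of 24 signalling and processing partners and 1 of 15 genes flanking or between the clusters. Each of these shares rests on 1 or 2 genes. Stag2, another cohesin subunit, rose by 0.23 (limma adjusted p = 0.0465). Nckap1 and Brk1, subunits of the WAVE complex, were lower at -0.38 (limma adjusted p = 0.0129) and -0.26 (limma adjusted p = 0.015). Pcdh10 rose by 0.26, Cdh11 rose by 0.35 and Hars was lower at -0.34. None of these lists had a member past the threshold with α-tocopherol or between the supplements.

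Markers of cell types moved alongside. All 8 measured markers of cortical excitatory neurons lay above the signal limit in this tissue labelled neocortex, as did the 6 measured markers of striatum. No marker on the array averaged 0 in any group, and the dimmest was Otx2 of the choroid plexus, at 42.9 to 70.3. Of 12 pan-neuronal markers, 6 rose in old controls and 5 fell from old controls to the mixture, and none was below the signal limit. Of 8 interneuron and 8 cortical excitatory neuron markers, 2 each rose in old controls and none fell with the mixture. Of 4 tested housekeeping genes, 2 rose in old controls and 2 fell with the mixture. The summed signal of the pan-neuronal markers was 173861 to 179346 in young controls, 183192 to 215447 in old controls, 173780 to 216859 with α-tocopherol and 156981 to 180239 with the mixture. In old controls 8 of 12 astrocyte markers, 5 of 9 tested oligodendrocyte markers and 8 of 10 tested microglia markers rose, against 11.7% of all genes tested. Another microglia marker fell, and of 8 tested endothelial markers 1 rose and 2 fell, against 9.3% of genes lower. Summed signals of the glial markers did not overlap between young and old controls. They were 67759 to 74009 against 98386 to 110027 for astrocyte markers, 70573 to 83502 against 88938 to 106379 for oligodendrocyte markers, and 17515 to 18908 against 28026 to 31300 for microglia markers. The sums of the pan-neuronal markers did not overlap between young and old controls either. Nor did those of the signalling and processing partners, the other cadherin superfamily genes and the genes that flank or lie between the clusters. Sums of the remaining lists overlapped. How often sums over gene sets outside these lists separate was not counted. With the mixture the astrocyte, oligodendrocyte and microglia sums were 76388 to 115155, 76026 to 89062 and 22351 to 37229. The choroid plexus sum varied most among old controls, from 11001 to 52807, against 29018 to 43031 in young controls. The part of these cell types in the protocadherin differences was not tested.

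The 3′-to-5′ ratio of the actin control probe sets, which rises as RNA is degraded, was 1.52 ± 0.14 in young controls, 2.04 ± 0.34 in old controls, 1.67 ± 0.39 with α-tocopherol and 1.43 ± 0.14 with the mixture (SD, n = 5 each). The mixture differed from old controls with an exact two-sided permutation p of 0.00794 (0.0381 adjusted over 24 tests). Old differed from young controls with a permutation p of 0.0238 (adjusted p = 0.0816). The 24 tests also took in the Pcdhb9 and α ratios within arrays described above, which were chosen after the values had been seen. The signal of the 18S ribosomal RNA control, a residue of messenger RNA selection, was 620 ± 171 in young controls and 1648 ± 365 in old controls. It was 1274 ± 713 with α-tocopherol and 910 ± 162 with the mixture (SD, n = 5 each). Old controls differed in it from young controls and from the mixture, each with an exact two-sided permutation p of 0.00794 (adjusted p = 0.0381). The median signal per array was 316 to 331 in young and 284 to 313 in old controls, with the same permutation p and adjusted p. With the actin ratio as a covariate Pcdhb9 kept its call. The log2 differences of Pcdhb3 and Pcdhb2 were then larger and less precise, 0.49 ± 0.15 (SE, limma adjusted p = 0.0543) and -0.63 ± 0.23 (SE, limma adjusted p = 0.0952).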

How the data were processed

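Neocortical poly(A) RNA of 20 mice was hybridised to Affymetrix arrays, 1 per mouse, per the labels' protocols. The deposited table gives a linear signal intensity per probe set, made with GCOS per the submitters' processing notes, with no version. How the authors set the background, summarised probe sets and called detection is not stated in the sources used here. The 2% trimmed mean was 1000 on every array, so a shift of all messenger RNA cannot be seen. Arrays correlated at 0.947 to 0.973, and no columns were identical.

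Values were taken as log2(signal + 16), without further scaling. limma 3.58.1 in R 4.3.3 (lmFit, eBayes with trend) was fitted over the 27022 probe sets with mean log2 signal in the top 60%, all 4 groups in 1 model, with Benjamini-Hochberg adjustment over all of them and a threshold of 0.05. The model was tested on simulated data. The fit without the limit served for dimmer members. Single values were compared by exact two-sided permutation tests (scipy 1.17.1). Gene symbols came from the platform annotation, updated through RefSeq for assembly GRCm38.p6. The number of arrays limits the precision.

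Members named were those past the threshold, else the 3 smallest p in each direction, the brightest probe set of each cluster, every probe set covering 5 or more α or γ isoforms, and single-symbol C-type isoforms. From other lists at most 4 a comparison were named, by smallest p. Others were named after their values were seen. The members and lists were chosen with earlier results of these data known. Replicate numbers occur in every group. Deviations of same-numbered mice correlated at a median r of 0.036 (-0.11 to 0.20), against -0.013 (-0.29 to 0.27) for different numbers. These ranges overlapped, and the mice were not treated as pairs. Alternatives were the pseudocount, the limit, 3 scalings, eBayes without trend, array measures as covariates, 1 probe set per gene, a replicate block and leaving out each mouse.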

Additional observations from a re-analysis of the deposited data

Results flagged for a closer look

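In 84 groups of 5 mice, 1 mouse stood apart from the other 4 in 9; chance gives about 1 in 20. Old control mouse 5 stood apart for Pcdhb21 (1420422_at, signal 210, lowest), Pcdhb12 (693, highest) and Pcdhb7 (475, lowest). Young mouse 1 stood apart for the α probe set 1420798_s_at (5190, highest) and young mouse 5 for Pcdhb17 (1312, highest). In the α-tocopherol group, mouse 3 stood apart for Pcdhb20 (1122, highest), mouse 4 for the 18S ribosomal RNA control (2504, highest) and mouse 1 for the actin 3′-to-5′ ratio (2.36, highest). The median signal of the array of old control mouse 3 was 313, the highest of its group.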

How the results depend on the processing

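Between old and young controls Pcdhb9 kept its direction and call in 23 of 23 other settings, at 0.69 to 0.86 (adjusted p 2.34e-06 to 0.000351). Pcdhb3 lost its call in 7 of 23 (0.35 to 0.52) and Pcdhb2 in 16 of 22 (-0.63 to -0.39). The count of higher members was 1 with the actin ratio or Ttr signal as a covariate, and 1 to 2 with a mouse left out. The count of lower members was 0 with pseudocount 1, no limit, the top 40%, equal array medians, quantile or loess normalization, the actin ratio or Ttr, and 0 to 1 with a mouse left out. With the replicate block it was also 0 (Pcdhb2 adjusted p = 0.0678); the block changed no other call. The count in the F test was 1 to 2 with a mouse left out. The β median between old and young controls, 0.094, was -0.026 with no limit, 0.23 with equal medians, -0.058 with the actin ratio, -0.076 with Ttr and -0.023 to 0.17 with a mouse left out (-0.023 without old control 1). For α-tocopherol the β median was -0.091 with the top 40%. For the mixture, with the actin ratio, it was 0.16 and the α median -0.086. Uncalled differences changed sign as follows. With the actin ratio 1451769_s_at was -0.038 between old and young controls, 1424341_s_at was -0.018 for α-tocopherol, -0.086 for the mixture and -0.068 between supplements, and Pcdhb16 was 0.15 for the mixture. With Ttr 1420798_s_at was 0.013 for α-tocopherol, and with equal medians 1424341_s_at was -0.025 between supplements. With a mouse left out, 1420798_s_at ran from -0.085 to 0.048 for α-tocopherol, and between supplements Pcdhb15 ran from -0.30 to 0.016, 1451769_s_at from -0.20 to 0.011 and 1424341_s_at from -0.031 to 0.069. Causes were not tested. Equal medians moved the median of all old minus young differences from -0.05 to 0.08, and the share of calls that were higher from 49.4% to 83.8% (53.9% with quantile, 55.0% with loess). For the mixture 36.1% of 970 calls were higher, against 10.1% with equal medians, 40.9% of 132 with quantile and 45.2% of 177 with loess. The γ probe set was too dim for a median.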
